A study of Mus musculus with 8 samples.

Results

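The immediate early transcription factors of the AP-1, Egr and Myc families were examined in the heart 24 hours after myocardial infarction (MI). They comprised 10 genes, namely Fos, Fosb, Fosl1, Fosl2, Jun, Junb, Atf3, Egr1, Egr2 and Myc. Probes of the array were assigned to them by the RefSeq transcript each probe was designed on, and each gene was represented by its brightest probe among those well above background on at least 4 arrays. All 10 genes had such a probe, out of 15156 named genes with a retained probe, and 11 of the 34038 retained probes belonged to them. Cardiac ventricles of 4 MI mice and 4 sham-operated mice, all male and of the C57BL\6 background, were profiled 24 hours after surgery, with 1 single-colour array per mouse. In MI mice the anterior interventricular artery was permanently occluded, whereas the sham group underwent the operation without occlusion and is a control for surgery, not an unoperated heart. The labels give no age. Heart tissue was homogenized as a whole, so that infarcted and surviving muscle, vessels and blood-borne cells contribute to each value, and in such bulk RNA fewer cells of a type and less RNA per cell cannot be told apart.

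Immediate early genes are transcribed within minutes of a stimulus because the factors they need are already present in the cell. Fos and Jun proteins pair through leucine zippers to form AP-1, which binds DNA at AP-1 sites, and the composition of the dimer sets its activity: Fosl1 and Fosl2 lack the strong transactivation domain of Fos, and Atf3 is best known as a stress-induced repressor. Egr1 and Egr2 are zinc finger factors that recognize GC-rich sites, and Myc pairs with Max at E boxes to drive growth, ribosome production and metabolism. In cardiac tissue these genes are textbook responders to stretch, ischemia and mechanical handling.

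RefSeq promoter windows (build GRCm38.p6, 250 bases before to 50 bases after a transcription start) matched 7 of the 10 genes by symbol, with 11 windows in all, 5 of them for Egr2. No window matched Fosl1, Egr1 or Myc. Stretches of 5 promoters are printed because these genes range from an unresolved difference to a clear one in the comparison that follows. The stretches run 5′ to 3′ on the strand of the gene and end at the base before the start, except that of Egr2, which is shortened to 30 bases around its motifs. Capitals mark the cAMP response element core TGACGT (bound by CREB and ATF factors, and reading ACGTCA on the opposite strand), the TATA box TATAAA, the CArG box of serum response factor and the Egr site GCGNGGGCG.
Fos, chr12:85473770-85473889, plus strand: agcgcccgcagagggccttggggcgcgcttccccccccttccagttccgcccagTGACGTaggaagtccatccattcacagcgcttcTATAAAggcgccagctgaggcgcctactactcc
Fosb, chr7:19310046-19310165, minus strand: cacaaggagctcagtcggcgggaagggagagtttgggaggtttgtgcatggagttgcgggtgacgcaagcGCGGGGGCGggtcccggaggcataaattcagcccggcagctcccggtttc
Atf3, chr1:191183334-191183453, minus strand: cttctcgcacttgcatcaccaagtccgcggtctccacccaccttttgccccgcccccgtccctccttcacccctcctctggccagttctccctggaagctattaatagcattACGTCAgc
Egr2, chr10:67537793-67537822, plus strand: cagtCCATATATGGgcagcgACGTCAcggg
Junb, chr8:84978749-84978868, minus strand: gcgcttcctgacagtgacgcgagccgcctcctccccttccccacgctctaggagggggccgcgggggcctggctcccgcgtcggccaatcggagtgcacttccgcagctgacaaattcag

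The motifs were searched on both strands of the whole windows. The core TGACGT occurred in windows of Fos, Atf3 and Egr2 and in 7.51% of all 32851 windows in the table. A CArG box occurred in 4 of the 5 Egr2 windows, which overlap in part, and in 1.63% of all windows. Some of those 4 windows hold the same box at the same genomic position, so they outnumber the separate boxes. The Egr site occurred in the windows of Fosb and Fosl2 and in 5.55% of all windows, and the E box CACGTG, the site of Myc and Max, in 1 window of Egr2 and in 7.15% of all. The TATA box was found in Fos and Junb, in Junb from the start itself onward and therefore outside the printed stretch, and in 13.6% of all windows. The AP-1 site TGANTCA was in none of the 11 windows and in 7.81% of all. These matches describe the letters of the windows and were not tested against the expression values.

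MI mice had higher signals than sham-operated mice for 5 of the 10 genes and lower signals for none, where a gene is called at a fold change over 2 and a limma p under 0.05 after Benjamini-Hochberg adjustment over all retained probes. Fosl1, a Fos family member that lacks the transactivation domain, rose 16.0-fold. Myc rose 2.35-fold and Junb, a Jun family member, 2.23-fold. The stress factor Atf3 (2.02-fold) and the zinc finger factor Egr2 (2.00-fold) passed both limits narrowly. The calls of Atf3 and Egr2 depended on the normalization and on single mice, whereas Fos, Fosb, Fosl2, Jun and Egr1 did not pass. At an unadjusted limma p under 0.05, 6 of the 10 were higher and none lower, against 14.8% of all retained probes higher and 5.07% lower at that limit. Over all retained probes 3.07% were called higher and 0.405% lower in MI mice. The median log2 fold change of the 10 genes was 0.83, beside a median of 0.12 for all retained probes. When each array was scaled to its 75th percentile instead, those medians were 0.72 and -0.02, and 88.3% of all calls were higher in MI in the first scaling against 72.2% in the second and 68.0% after quantile normalization.

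**Figure D1:**
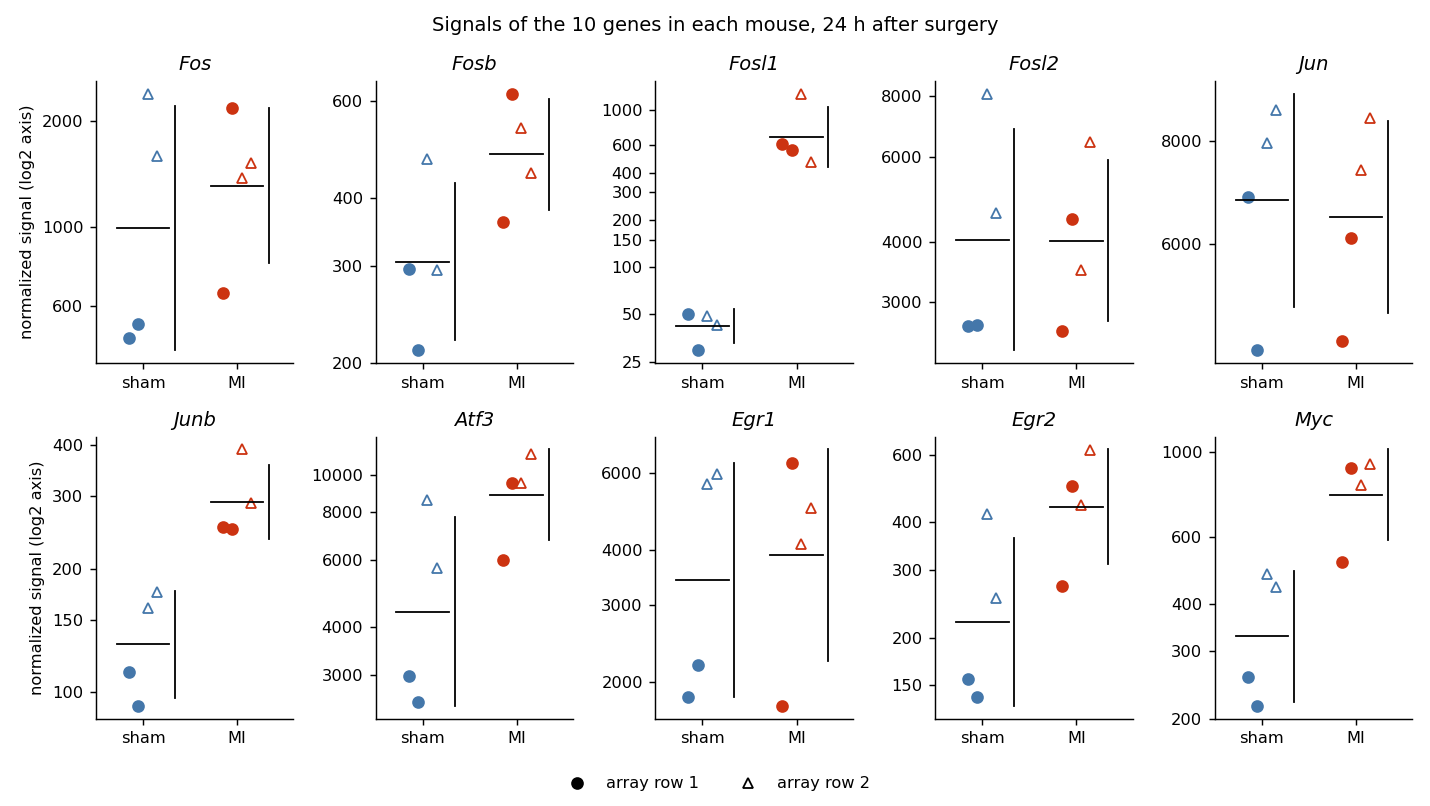
Normalized signal of each gene in each mouse on a log2 axis, with 4 sham-operated mice in blue and 4 MI mice in red. Horizontal lines are the means of the log2 values and vertical lines the SD, filled circles are arrays of row 1 of the slide and open triangles arrays of row 2. The groups are apart for Fosl1, Junb and Myc and overlap for the other 7 genes.

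Among the Fos family, the signal of Fosl1 was 614, 560, 1274 and 471 in MI mice 1 to 4 and 50.4, 29.5, 49.1 and 42.7 in sham-operated mice 1 to 4. Every MI mouse lay far above every sham-operated mouse, and in sham-operated mouse 2 the probe was not well above background. The log2 fold change was 4.00 ± 0.26 (SE, 4 mice per group), with an adjusted p of 4.73e-11 in limma after Benjamini-Hochberg adjustment, the 12th highest of the 34038 retained probes. It stayed between 3.70 and 4.18 with each mouse left out in turn. Scaling to the 75th percentile gave 4.44, an own fit of the vsn model, whose large additive constants compress dim probes, gave 1.88, and background correction by normexp gave 2.80, and the gene was called in each.

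Fos, the prototype of the family, had signals of 654, 2169, 1376 and 1520 in MI mice and 487, 533, 2379 and 1585 in sham-operated mice. The highest value of all 8 mice belonged to a sham-operated mouse, and the shams alone spanned a 4.89-fold range. The difference of 0.40 ± 0.38 on the log2 scale did not pass (adjusted p = 0.620, limma with Benjamini-Hochberg adjustment), and its 95% interval ran from -0.38 to 1.18, so that a rise over 2-fold was not excluded. The sham SD of Fos, 1.14 on the log2 scale, was above that of 99.6% of the retained probes. The moderated error of limma was well below the unmoderated one for this gene, which was 0.68 and would give an interval wider in both directions.

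Fosb had signals of 361, 619, 536 and 444 in MI mice and 297, 211, 471 and 296 in sham-operated mice. Sham-operated mouse 3 lay above MI mice 1 and 4, and the other 3 shams lay below all MI mice. The log2 difference was 0.65 ± 0.24 with an adjusted p of 0.105 in limma after Benjamini-Hochberg adjustment, and its 95% interval ran from 0.16 to 1.14.

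Fosl2 had signals of 2609, 4460, 3496 and 6437 in MI mice and 2675, 2689, 8089 and 4585 in sham-operated mice. The highest mouse was again sham-operated mouse 3, and the difference was -0.01 ± 0.30 on the log2 scale (adjusted p = 0.993 in limma with Benjamini-Hochberg adjustment, 95% interval from -0.62 to 0.61). Here too the unmoderated error was larger, at 0.47, and would give a wider interval. Fosl2 was the single gene of the 10 with a second retained probe, a dim one with signals of 62.3, 55.1, 79.9 and 59.9 in MI mice and 38.7, 31.4, 41.5 and 39.9 in sham-operated mice. On that probe the groups did not overlap and the difference was 0.76 ± 0.21 (adjusted p = 0.0213 in limma with Benjamini-Hochberg adjustment), short of 2-fold. The probes therefore disagree, and both were designed on the same RefSeq transcript.

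In the Jun family, Junb had signals of 253, 250, 391 and 290 in MI mice and 112, 92.4, 160 and 175 in sham-operated mice, and the groups did not overlap. The log2 difference was 1.16 ± 0.23 with an adjusted p of 0.00153 in limma after Benjamini-Hochberg adjustment. Without sham-operated mouse 2 the fold fell just short of 2-fold, at 0.99 on the log2 scale (adjusted p = 0.00654). Jun itself, the main partner of Fos proteins, had signals of 4582, 6099, 7372 and 8528 in MI mice and 6835, 4462, 7962 and 8711 in sham-operated mice. The groups interleaved over the same range. The log2 difference of Jun was -0.07 ± 0.24, and its 95% interval from -0.56 to 0.43 left out a 2-fold change in either direction (adjusted p = 0.914 in limma with Benjamini-Hochberg adjustment).

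Atf3, which can pair with Jun proteins, had signals of 6004, 9548, 9543 and 11367 in MI mice and 2984, 2557, 8591 and 5736 in sham-operated mice. MI mice 2, 3 and 4 lay above the highest sham, and MI mouse 1 lay between sham-operated mice 4 and 3. The log2 difference was 1.01 ± 0.29 with an adjusted p of 0.0315 in limma after Benjamini-Hochberg adjustment. It missed the adjusted limit after scaling to the 75th percentile (adjusted p = 0.132). A limma fit with robust trended moderation, which can let variable probes keep more of their own error, gave an adjusted p of 0.101 (SE 0.35). Leaving out sham-operated mouse 1 (adjusted p = 0.0867), sham-operated mouse 2 (0.104), MI mouse 2 (0.100) or MI mouse 4 (0.0510) ended the call, and without MI mouse 3 the difference was 0.98, below 2-fold.

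Of the Egr genes, Egr2 had signals of 273, 499, 443 and 618 in MI mice and 156, 140, 420 and 254 in sham-operated mice. As for Atf3, 3 of the 4 MI mice lay above all shams and sham-operated mouse 3 lay above MI mouse 1. The log2 difference was 1.00 ± 0.29 with an adjusted p of 0.0306 in limma after Benjamini-Hochberg adjustment. The adjusted p was 0.141 after scaling to the 75th percentile and 0.00807 with robust trended moderation. That last fit was not stricter for Egr2, since its SE was 0.27, against 0.29 in the main fit and 0.44 unmoderated. An ordinary t-test, which uses the unmoderated error, gave 0.350 after Benjamini-Hochberg adjustment. The call of Egr2 was lost without the same 5 mice as that of Atf3, with adjusted p of 0.0808 (sham-operated mouse 1), 0.0898 (sham-operated mouse 2), 0.104 (MI mouse 2) and 0.0653 (MI mouse 4), and with the difference at 0.997 without MI mouse 3. Egr1 had signals of 1764, 6315, 4126 and 4974 in MI mice and 1847, 2184, 5642 and 5941 in sham-operated mice. MI mouse 1 was the lowest and MI mouse 2 the highest of all 8 mice, and the difference of 0.19 ± 0.35 was within the spread (adjusted p = 0.823 in limma with Benjamini-Hochberg adjustment, 95% interval from -0.53 to 0.91). The unmoderated error of Egr1 was 0.60, so this interval is narrower than its own spread would give.

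Myc had signals of 517, 910, 820 and 931 in MI mice and 257, 216, 479 and 443 in sham-operated mice. The lowest MI mouse lay just above the highest sham. The log2 difference was 1.23 ± 0.26 with an adjusted p of 0.00216 in limma after Benjamini-Hochberg adjustment, and the gene kept its call with any 1 mouse left out, at differences from 1.03 to 1.43. Scaling to the 75th percentile gave 1.15 (adjusted p = 0.0423).

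**Figure D2:**
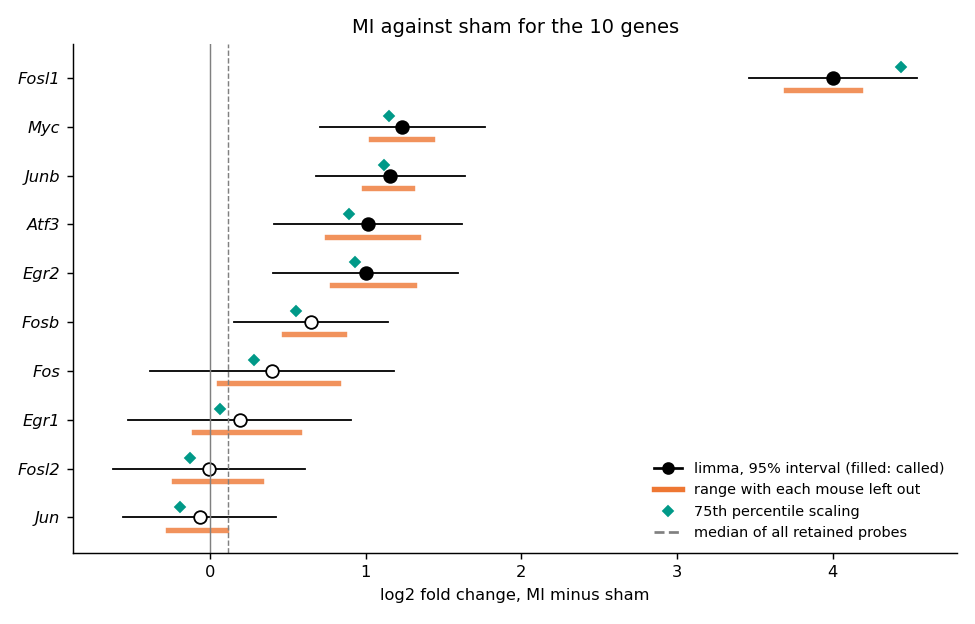
Log2 fold change of MI over sham-operated mice for each gene, with the 95% interval of limma in black, the range over fits with 1 mouse left out in orange and the value after scaling to the 75th percentile as a green diamond. Filled circles are called genes. Fosl1 stands at 4.00, while Myc, Junb, Atf3 and Egr2 lie between 1.00 and 1.23 and the intervals of Fos, Egr1, Fosl2 and Jun include 0.

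The groups did not overlap for Fosl1, Junb and Myc, each with every MI mouse higher, against 8.46% of all retained probes. An exact permutation test on the group means, two-sided, gave p = 0.0286 for these 3 genes, the smallest that 4 against 4 mice allows. The same exact test gave p = 0.0571 for Atf3 and for Egr2 and p = 0.0857 for Fosb.

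The spread among sham-operated mice followed the row of the array on the slide. The slide held MI mice 1 and 2 and sham-operated mice 1 and 2 in row 1, and the other 4 mice in row 2. Of the 10 genes, 9 had their highest sham signal in row 2, 6 in sham-operated mouse 3 (Fos, Fosb, Fosl2, Atf3, Egr2 and Myc) and 3 in sham-operated mouse 4 (Jun, Junb and Egr1), and the exception was Fosl1. The mean of the row 2 shams exceeded that of the row 1 shams by 1.93 on the log2 scale for Fos, 1.53 for Egr1, 1.35 for Atf3, 1.18 for Fosl2 and 1.14 for Egr2. The median of this difference over all retained probes was 0.05, and the value of Fos was above that of 99.9% of them. In MI mice the same difference between rows was 0.28 for Fos and 0.44 for Egr1, and MI mouse 1 was the lowest MI mouse for 8 of the 10 genes. Row and mouse cannot be told apart, since each row held 2 mice of a group.

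Within rows, Fos was higher in MI mice by 1.23 in row 1 and lower by 0.42, as a log2 difference of -0.42, in row 2. Egr1 differed by 0.73 in row 1 and -0.35 in row 2, and Fosl2 by 0.35 and -0.36. The genes called were higher in MI mice in both rows. The log2 differences in rows 1 and 2 were 3.93 and 4.08 for Fosl1, 1.54 and 0.92 for Myc, 1.30 and 1.01 for Junb, 1.45 and 0.57 for Atf3, and 1.32 and 0.68 for Egr2. With the row as a block in limma, Junb (adjusted p = 0.000558), Myc (0.000675), Atf3 (0.00759) and Egr2 (0.0101) remained called after Benjamini-Hochberg adjustment. A limma term for a group difference that varies between rows did not pass for any of the 10 genes after Benjamini-Hochberg adjustment. The lowest adjusted p was 0.298 for Fos, and the term passed for 74 of 33865 probes. At an unadjusted limma p under 0.05 it passed for Fos and Egr1, and for 671 of the 33865 probes.

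**Figure D3:**
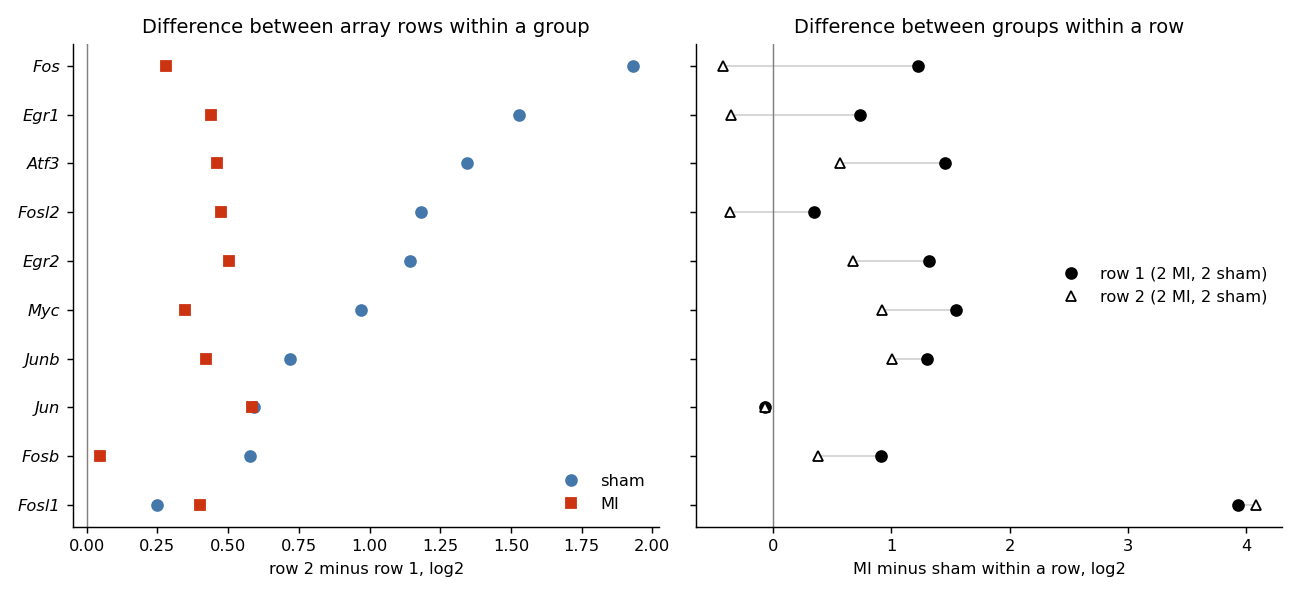
Left, mean of array row 2 minus mean of array row 1 on the log2 scale within sham-operated mice (blue circles) and within MI mice (red squares), 2 mice per row and group. Right, MI minus sham within row 1 (filled circles) and row 2 (open triangles). Sham differences reach 1.93 for Fos, and MI minus sham changes sign between rows for Fos, Egr1 and Fosl2.

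Profiles over the 8 mice, each centred on its own mean, were compared by their root mean square difference on the log2 scale, which describes likeness and carries no test. Among the 10 genes the closest pair was Atf3 and Egr2 at 0.11, followed by Atf3 and Myc at 0.22, Egr2 and Myc at 0.22, and Fos and Egr1 at 0.25. Fosl1 stood apart from each of the other 9, at 1.46 or more. Of 15076 other genes, those closest to Fos were Otud1 at 0.30, the antiproliferative gene Btg2 at 0.33 and the kinase gene Plk3 at 0.52, and the same genes were closest to Egr1, with Btg2 at 0.31. Atf3, Egr2 and Myc shared Has1, a hyaluronan synthase gene, at 0.19 to 0.22, and Myc was nearest to the kinase gene Pim1 at 0.16. Pim1 and Nfil3 completed the nearest 3 of Atf3, Nfil3 and Plk2 those of Egr2, and Adamts1 those of Myc. Junb was nearest to the immediate early gene Ier5 at 0.15, then to Nop58 and Slc38a2.

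Fosl1 was nearest to Sh2d5 at 0.29, then to Stfa2l1 and Cstdc5, genes of the stefin protease inhibitors, which rose by 4.19 and 4.37 on the log2 scale beside 4.00 for Fosl1. The markers of neutrophils also moved with the group, and 9 of the 10 listed had a retained probe. Of these, 6 were called higher and none lower, beside 3.07% and 0.405% of all retained probes. Their summed signal was 203880 to 315990 in MI mice and 61526 to 80352 in sham-operated mice. The median log2 difference of the 9 markers was 2.79. Retnlg, one of them and named outside the naming rule given below, differed by 4.24 on the log2 scale. The part of neutrophils in the Fosl1 difference was not tested. Fosl2 was nearest to Slc25a25, Sik1 and Btg2 at 0.22 to 0.28, Jun to Bcl6b, Nedd9 and Esam at 0.17 to 0.20, and Fosb to Tox3, Sat1 and Slc39a10 at 0.16 to 0.20.

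Dimer partners of these factors were examined next. Of 18 measured Jun, Fos and ATF family partners outside the 10 genes, which include Jund, Batf, Maf and CREB genes, none was called in either direction by limma, and 8 were higher and none lower at an unadjusted p under 0.05 (14.8% and 5.07% of all retained probes). At any fold, 3 passed the adjusted limit of 0.05, all higher: Batf by 0.81, the integrated stress response gene Ddit3 by 0.73 and Atf4 by 0.71, of which Atf4 missed the limit after 75th percentile scaling (adjusted p = 0.0863, limma with Benjamini-Hochberg adjustment) and Ddit3 after spike-in shift (0.0786). With 1 mouse left out, Batf passed in 8 of 8 fits, Ddit3 in 4 and Atf4 in 1. The median log2 fold change of the list was 0.34. At any fold, 6.3% of all retained probes passed higher and 1.31% lower.

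The other immediate early genes went in both directions. Of 30 measured, 6 were called higher and 2 lower, with a median of 0.26, beside 3.07% and 0.405% of all retained probes. At any fold, 8 passed the adjusted limit higher and 4 lower (6.3% and 1.31% of all retained probes). At an unadjusted limma p under 0.05, 10 were higher and 5 lower (14.8% and 5.07%). Ptgs2, which encodes cyclooxygenase 2, had signals of 214, 551, 459 and 364 in MI mice and 48.9, 50.9, 104 and 45.8 in sham-operated mice, a log2 difference of 2.67 ± 0.28. Ier3 rose by 2.47 and the cytokine signaling inhibitor Socs3 by 2.15. The genes called lower, named after their values were seen, were the orphan nuclear receptor gene Nr4a1, by -1.17 on the log2 scale, and the kinase gene Sgk1, by -1.01. Sgk1 did not overlap between groups, with 4166 to 6499 in MI mice and 7688 to 12480 in sham-operated mice, whereas Nr4a1 overlapped, with 10498 to 41858 in MI mice and 22421 to 83251 in sham-operated mice. Nr4a1 missed the adjusted limit after 75th percentile scaling (adjusted p = 0.122, limma with Benjamini-Hochberg adjustment), and with 1 mouse left out Nr4a1 kept its call in 4 of 8 fits and Sgk1 in 3 of 8.

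Regulators of Egr activity were 4 genes, with no call. The corepressor gene Nab2, itself an Egr target, had a log2 difference of 0.77, Cited1 of 0.91, Nab1 of 0.33 and Ddx20 of -0.16, and of these Nab2 and Cited1 passed the adjusted limit at any fold, Nab2 not after 75th percentile scaling (adjusted p = 0.0613, limma with Benjamini-Hochberg adjustment). With 1 mouse left out, Cited1 passed in 8 of 8 fits and Nab2 in 3. In the network of Myc and Max, 9 of 12 genes were measured and 1 was called, beside 3.07% of all retained probes called higher. The called gene was Mxd1, which competes with Myc for Max. Mxd1 rose by 1.48, from 937 to 1839 in sham-operated mice to 2971 to 4646 in MI mice. Mycn differed by 0.89 at a dim signal and passed the adjusted limit, but by 0.19 with the own vsn fit (adjusted p = 0.284 in limma with Benjamini-Hochberg adjustment) and 0.42 with normexp, and passed in 5 of 8 fits with 1 mouse left out. The median of the network was 0.00.

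Of 23 measured kinases and serum response factors upstream of these genes, 2 were called, both higher, beside 3.07% of all retained probes. These were Map2k3, a kinase of the p38 pathway, by 1.18 and the ribosomal S6 kinase gene Rps6ka3 by 1.20. Map2k6, the other kinase that activates p38, lay lower by 0.98, as a log2 difference of -0.98, just short of 2-fold. It was called lower after 75th percentile scaling (-1.24, adjusted p = 0.00181 in limma with Benjamini-Hochberg adjustment), spike-in shift (-1.11), quantile normalization (-1.30) and in 4 of 8 fits with 1 mouse left out, whereas the own vsn fit gave -0.38 (adjusted p = 0.0624). Its signals were 65.1 to 116 in MI mice and 149 to 220 in sham-operated mice, without overlap. Without sham-operated mouse 2, Map2k3 fell to 0.98 and Rps6ka3 to 0.99. Rps6ka3 had no value in sham-operated mouse 4, where its spot carried an outlier flag, and with the authors' values, which keep that array, its difference was 0.49 (adjusted p = 0.649 in limma with Benjamini-Hochberg adjustment). The median of the list was 0.27.

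Textbook targets of AP-1 and Myc were then examined. Of 14 measured AP-1 targets, 8 were called higher and none lower, with a median log2 fold change of 1.75, beside 3.07% of all retained probes called higher. The cytokine gene Il6 had signals of 1730, 4485, 4883 and 2199 in MI mice and 153, 181, 638 and 440 in sham-operated mice, a log2 difference of 3.35 ± 0.36. Its shams of array row 2 lay above those of row 1. The unmoderated error of Il6 was 0.62, and an ordinary t-test gave an adjusted p of 0.0629 after Benjamini-Hochberg adjustment. The growth factor gene Hbegf rose by 3.03. Neutrophils and macrophages also express several genes of this list, and the neutrophil markers moved with the group as given above.

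Of 15 measured Myc targets, 2 were called higher and none lower, with a median of 0.63, beside 3.07% and 0.405% of all retained probes. The transferrin receptor gene Tfrc rose by 1.78, from 130 to 201 in sham-operated mice to 425 to 631 in MI mice, and the spermidine synthase gene Srm by 1.61. Odc1, which encodes the rate-limiting enzyme of polyamine synthesis, differed by 0.92 with no overlap, at 6452 to 8408 in MI mice and 3187 to 4269 in sham-operated mice. On this brightest probe it passed the adjusted limit but not the 2-fold limit. As the mean over all retained probes of a gene, Odc1 was at 1.15, over 2-fold (adjusted p = 0.000442 in limma with Benjamini-Hochberg adjustment). Tfrc was at 1.22 and Srm at 1.54 in that setting.

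**Figure D4:**
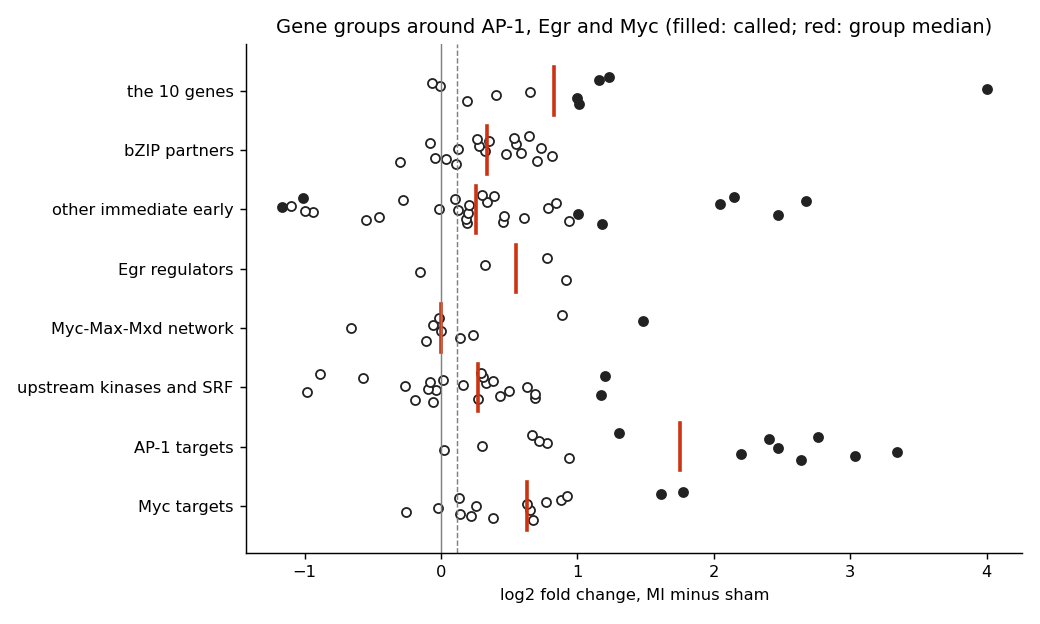
Log2 fold change of MI over sham-operated mice for each measured gene of 8 lists. Points are genes, filled where called, red bars are list medians and the dashed line is the median of all retained probes, 0.12. The list median is 1.75 for AP-1 targets, 0.83 for the 10 genes and 0.63 for Myc targets.

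Markers of the resident cells gave few calls. Over all retained probes, 3.07% were called higher and 0.405% lower. All 10 cardiomyocyte markers, 8 fibroblast markers and 7 endothelial markers had a retained probe and none of these was called, while 1 of 5 smooth muscle markers, Acta2, was called higher. Median log2 differences were -0.06 for cardiomyocyte, -0.41 for fibroblast, 0.22 for endothelial and -0.07 for smooth muscle markers, beside 0.12 for all retained probes. The fibroblast median was -0.53 after 75th percentile scaling, and 2 of the 8 fibroblast markers had a higher mean in MI mice. Of 8 measured monocyte and macrophage markers, Cd14 and Ccr2 were called higher, and the summed signal of the list overlapped, at 39135 to 58742 in MI mice and 32687 to 62930 in sham-operated mice. None of the 4 measured T cell and 5 measured B cell markers was called. At any fold, 2 T cell markers and 1 B cell marker passed the adjusted limit, all higher, beside 6.3% of all retained probes higher and 1.31% lower. At an unadjusted limma p under 0.05, 1 cardiomyocyte marker was higher and 1 lower, 1 fibroblast marker higher and 2 lower, 2 endothelial, 2 T cell and 3 B cell markers higher and none of these 3 lists lower, beside the 14.8% and 5.07% of all retained probes given above.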

How the data were processed

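Per the file headers, the deposited intensities of the 8 arrays were processed by Feature Extraction 11.0.1.1, which subtracted the local background. The authors' log2 values used detected spots alone and were normalized with spike-in probes in limma and vsn. Setting those values against the scanner output gave the scale (0.791 to 1.33) and additive constant (3.16 to 19.6) of each array without misfit, and these were applied to the processed signals of all spots. Outlier spots were dropped, replicate spots averaged, and probes detected above background on fewer than 4 arrays removed. Signals printed are these values on the linear scale. The number of arrays limits the precision. Between 58.6% and 66.4% of spots were well above background, and 1 spot was saturated. The slide was scanned once.

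Groups came from the sample labels, which number the mice of each group. Labels name separate samples, each read as 1 mouse after the study's methods. MI and sham-operated mice were compared in limma 3.58.1 (R 4.3.3) without covariates, with Benjamini-Hochberg adjustment over all retained probes, and single genes also by exact permutation. Python 3.11.15, numpy 2.4.6, scipy 1.17.1, pandas 2.3.3 and matplotlib 3.10.9 were used. Tests were tried on simulated data. Symbols and promoters came from RefSeq tables of GRCm38.p6, a different build from that of the array design, so no array coordinates are given. Named were all 10 genes, the 3 genes with the largest change passing the adjusted limit in each list, every gene of lists of 4 or fewer, and the 3 most alike genes per member, and others are named as such. The values of 1 gene that this rule names are not reported here. The 10 genes, the lists and the motifs were chosen with earlier results of these data known. Alternatives were other scalings (75th percentile, spike-in shift, an own fit of the vsn model, quantile), the authors' log2 values, normexp with an offset of 50 on median intensities, other detection filters, blocks for replicate number and array row, significance analysis of microarrays with all 70 permutations, the methods' t-test, the mean over probes and each mouse left out. Robust trended moderation in limma was added after seeing the data.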

Additional observations from a re-analysis of the deposited data

How the results depend on the processing

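Fosl1 was called higher in all 21 alternatives that tested it, detection on 8 arrays leaving it out. The number of the 10 genes called higher, 5, fell to 3 after 75th percentile scaling, spike-in shift, quantile normalization and with the authors' values. It fell to 2 without a detection filter and to 1 with the own vsn fit, normexp and an ordinary t-test. With 1 mouse left out it ranged from 2 to 5. At any fold it was 3 under those first 4 settings and normexp. It was 2 with the own vsn fit and without a filter, and 1 with the ordinary t-test. With 1 mouse left out it was 3 to 6 at any fold. Atf3 and Egr2 account for most lost calls. Myc missed the adjusted limit with the own vsn fit (log2 difference 0.88, adjusted p = 0.0558 in limma with Benjamini-Hochberg adjustment) and without a filter (0.0633). With an ordinary t-test and Benjamini-Hochberg adjustment, Myc (adjusted p = 0.168) and Junb (0.103) both missed it. With significance analysis of microarrays, the test that the study's methods name, Myc, Junb and Egr2 kept their calls. Atf3 missed the limit there, with a permutation-based adjusted p of 0.0509. With normexp, Myc fell to 0.96 and Junb to 0.87, both below 2-fold. Junb fell to 0.57 with the own vsn fit, whose constants of 166 to 256 hold back dim probes.

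Differences near 0 changed sign. Fosl2 was at 0.0012 after spike-in shift, 7.3e-05 with the own vsn fit, 0.37 as the mean over both probes, and -0.23 to 0.33 with 1 mouse left out. Egr1 ranged from -0.11 to 0.57 and Jun from -0.27 to 0.10 with 1 mouse left out. Among the genes named for their likeness or from the lists, Nedd9 was at -0.0858 after 75th percentile scaling, -0.0890 after quantile normalization and -0.0400 with normexp, Esam at -0.11, -0.0278 and -0.0399, and Ddx20 at 0.10 as the mean over its probes, and with 1 mouse left out Nedd9 ranged from -0.13 to 0.18, Esam from -0.10 to 0.17, Btg2 from -0.0858 to 0.52, Slc25a25 from -0.33 to 0.10 and Ddx20 from -0.29 to 0.0523.

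Over all probes, 1046 higher and 138 lower calls became 401 lower after 75th percentile scaling and 450 lower after quantile normalization. They became 320 higher and 13 lower with the own vsn fit, 439 higher with normexp and 52 lower without a filter. An ordinary t-test gave 571 higher and 7 lower (1154 in both directions at 2-fold and an unadjusted limit of 0.05). Significance analysis of microarrays gave 1030 higher and 133 lower. With 1 mouse left out, calls ranged from 925 to 1321 higher and 58 to 249 lower. Over the pathway lists, 19 higher calls became 12 with the ordinary t-test and 16 to 22 with 1 mouse left out. The 2 lower calls became 4 after 75th percentile scaling and quantile normalization. They became 1 with the authors' values, robust moderation and significance analysis of microarrays. They became 0 with the own vsn fit, without a filter and with the ordinary t-test, and 0 to 6 with 1 mouse left out. The cause of these changes was not tested.

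The labels do not say that a replicate number marks a pair. Deviations of same-numbered mice correlated at 0.24, 0.29, 0.14 and 0.01, and since the last is below 0.1 the numbers were not used as pairs. Sham-operated mice 1, 2 and 3 correlated best with the MI mouse of their number and sham-operated mouse 4 did not. With the replicate number as a block, 1028 probes were called higher and 127 lower, 5 of the 10 genes remained higher and the lower calls in the pathway lists went to 1. At this number of arrays, the 95% interval of the Fos difference, from -0.38 to 1.18, held both no change and a rise over 2-fold. It rests on the moderated error, and the unmoderated one would give an interval wider in both directions.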
